A study of Mus musculus with 12 samples.

Results

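The IFIT and OAS genes examined here were Ifit1, Ifit2, Ifit3, Oas1a, Oas1b, Oas1g, Oas2, Oas3, Oasl1 and Oasl2. They were chosen by symbol, with earlier results of these data known, and all 10 were found among the 22236 genes of the deposited table. All 10 were also among the 15853 genes that passed the filter on low counts. RNA came from whole hippocampus of adult male mice (3 to 5 months by the labels) of the inbred strains C57BL/6J (B6) and DBA/2J (D2). An adeno-associated virus (AAV9) had been injected on both sides, carrying a short hairpin RNA against Hp1bp3 (KD) or a scrambled hairpin (Ctrl), and tissue was taken at least 6 weeks later. There were 3 mice in each of the 4 groups, B6 Ctrl, B6 KD, D2 Ctrl and D2 KD, and 1 library per mouse. Every group, Ctrl included, therefore carried the virus and a hairpin, and uninjected mice were not analysed here. The virus was aimed at the dorsal hippocampus, while the RNA came from the whole hippocampus with all its cell types.

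IFIT and OAS proteins are antiviral effectors that cells make in response to interferon. IFIT proteins bind viral RNA and block its translation. OAS enzymes sense double-stranded RNA and make 2-5A, a short chain of linked adenosines that sets off the breakdown of RNA. OAS-like proteins share the OAS fold. In the brain, microglia, astrocytes and neurons can all express these genes, and microglia are the resident immune cells.

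The libraries held 18213084 to 39420219 expected counts (median 32380282). Levels are given as CPM, counts scaled to a common library size with TMM factors. Hp1bp3, the target of the hairpin, was at 308, 294 and 310 CPM in B6 Ctrl and at 185, 182 and 259 CPM in B6 KD, with no overlap. In D2 it was at 226, 215 and 234 CPM in Ctrl and at 177, 163 and 230 CPM in KD. The third D2 KD library thus lay inside the range of D2 Ctrl and is called the library labelled D2 KD 3. The change of Hp1bp3 was -0.54 ± 0.15 on the log2 scale in B6 (SE, edgeR adjusted p = 0.0760) and -0.25 ± 0.15 in D2 (edgeR adjusted p = 1). The neuronal markers of the hippocampus were present in every library, with a summed level of 7409 to 10661 CPM.

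The genes lie in 3 places of the mouse genome (GRCm38). Ifit2, Ifit3 and Ifit1 lie on the plus strand of chromosome 19, within chr19:34550694-34650009. Oas2, Oas3, Oas1b, Oas1g and Oas1a lie on chromosome 5, within chr5:120730333-120907521, with Oas1b on the plus strand and the others on the minus strand. Oasl2 and Oasl1 form a pair on the plus strand within chr5:114896936-114937915. The annotation lists Oas1b as a polymorphic pseudogene and the other 9 genes as protein coding.

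The DNA just before the start of each gene was searched for the core of the interferon-stimulated response element, which is GAAA, 2 bases of any kind and GAAA, on either strand. The reference table (RefSeq, GRCm38.p6) held 8 of the 10 genes, and 5 of these 8 (62.5%) had a match within the 250 bases before the start: Ifit1, Ifit3, Oas3, Oas1a and Oas1g. Of all 26994 genes in the table, 3.45% had a match in the same window, and of the 11711 tested genes in it, 3.19%. No match was found for Ifit2, which has 2 start sites in the table, Oasl1 or Oasl2. The 5 windows with a match are shown because they carry the element, with the matching bases in capitals. A match on the opposite strand reads as TTTC, 2 bases and TTTC. Overlapping matches run together.
Ifit1 (chr19:34640639-34640888, plus strand): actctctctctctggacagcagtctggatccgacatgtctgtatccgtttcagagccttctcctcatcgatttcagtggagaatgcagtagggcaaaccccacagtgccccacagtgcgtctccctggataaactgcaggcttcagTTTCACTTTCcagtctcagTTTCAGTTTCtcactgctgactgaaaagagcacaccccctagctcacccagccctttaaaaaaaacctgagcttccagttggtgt
Ifit3 (chr19:34583279-34583528, plus strand): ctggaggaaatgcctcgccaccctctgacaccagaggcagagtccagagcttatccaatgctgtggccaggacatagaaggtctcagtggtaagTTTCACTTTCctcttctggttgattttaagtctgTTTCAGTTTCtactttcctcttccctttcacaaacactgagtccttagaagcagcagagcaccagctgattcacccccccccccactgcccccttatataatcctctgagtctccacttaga
Oas3 (chr5:120777660-120777909, minus strand): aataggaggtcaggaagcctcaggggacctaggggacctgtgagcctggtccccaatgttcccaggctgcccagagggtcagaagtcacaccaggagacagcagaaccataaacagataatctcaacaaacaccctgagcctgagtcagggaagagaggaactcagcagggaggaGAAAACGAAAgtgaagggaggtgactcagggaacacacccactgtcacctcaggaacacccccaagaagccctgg
Oas1a (chr5:120907526-120907775, minus strand): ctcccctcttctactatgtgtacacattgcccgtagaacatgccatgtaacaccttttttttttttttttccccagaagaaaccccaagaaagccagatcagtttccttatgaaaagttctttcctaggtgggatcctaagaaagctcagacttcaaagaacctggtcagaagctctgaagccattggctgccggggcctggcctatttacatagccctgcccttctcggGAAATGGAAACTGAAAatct
Oas1g (chr5:120887614-120887863, minus strand): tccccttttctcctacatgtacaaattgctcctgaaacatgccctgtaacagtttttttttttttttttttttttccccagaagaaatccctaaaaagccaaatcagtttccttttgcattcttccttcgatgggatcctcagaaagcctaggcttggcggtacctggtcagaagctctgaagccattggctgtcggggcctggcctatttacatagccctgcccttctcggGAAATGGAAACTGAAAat
In Ifit1 and Ifit3 both matches lay on the opposite strand, those of Ifit1 starting 104 and 85 bases before the start and those of Ifit3 156 and 122 bases before it. Oas1a and Oas1g each had a pair of overlapping matches within the last 20 bases before the start. The single match of Oas3 began 75 bases before the start. The letters describe the sequence only, and binding of a factor was not measured.

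The first question was how KD affected these genes in B6. All 10 were higher in every B6 KD library than in every B6 Ctrl library, an order found in 13.9% of all tested genes. The estimated log2 fold changes ran from 2.21 for Ifit2 to 4.69 for Oas1g, with a median of 4.33, against a median of 0.0025 over all tested genes. By edgeR's quasi-likelihood test with Benjamini-Hochberg adjustment, 9 of the 10 rose and Ifit2 did not pass the threshold of 0.05. Over all genes, 2.64% were called in this comparison, and 1.76% were called higher.

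These calls lay close to the threshold, with adjusted p-values of 0.0326 to 0.0465, and they depended on single libraries. No gene of the 10 was called by edgeR when B6 Ctrl 1, B6 Ctrl 3, B6 KD 1, B6 KD 2 or D2 Ctrl 1 was left out. With D2 Ctrl 2 left out 1 was called, and with B6 Ctrl 2 or D2 KD 1 left out 3 were called. With B6 KD 3, D2 KD 2 or the library labelled D2 KD 3 left out all 10 were called. The unadjusted p was under 0.05 for all 10 in each of these fits, and every estimate remained positive. Over all tested genes, 2231 to 3676 had an unadjusted p under 0.05 in these fits, and 20.6% had with all libraries. With all libraries, DESeq2 called all 10 among 1688 genes, limma-voom 4 among 368 and limma-voom with library weights 10 among 2304. With the library total as a covariate, edgeR called 0 of the 10 and 0 of all tested genes.

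Among the IFIT genes, Ifit1, which binds the 5′ end of foreign RNA, was at 4.07, 5.31 and 3.79 CPM in B6 Ctrl and at 91.0, 126 and 48.7 CPM in B6 KD. Its log2 fold change was 4.34 ± 0.66 (SE, edgeR adjusted p = 0.0326), or 20.2-fold. Ifit3, a partner of Ifit1 and Ifit2 in protein complexes, was at 12.4, 14.2 and 10.2 CPM in B6 Ctrl and at 210, 272 and 74.9 CPM in B6 KD. The lowest KD library of either gene was well above the highest Ctrl library. The change of Ifit3 was 3.92 ± 0.83 (edgeR adjusted p = 0.0420). Ifit2, which binds RNA rich in adenine and uracil, was at 12.7, 14.4 and 13.0 CPM in B6 Ctrl and at 65.9, 100 and 19.4 CPM in B6 KD. Its groups did not overlap either, but B6 KD 3 was close to Ctrl, and its change of 2.21 ± 0.55 had an adjusted p of 0.0573 by edgeR.

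The OAS enzymes were lower in Ctrl than the IFIT genes when set per kilobase of merged exons. In B6 Ctrl, the mean level was 7.03 CPM per kb for Ifit3, 3.41 for Ifit2 and 1.65 for Ifit1, against 0.59 for Oas1a and 0.061 for Oas3. Oas1a, a small enzyme that makes 2-5A, was at 1.02, 1.22 and 1.07 CPM in B6 Ctrl and at 24.8, 34.8 and 7.79 CPM in B6 KD. The rise in Oas1a was 4.34 ± 0.87 on the log2 scale (edgeR adjusted p = 0.0389). Oas1g, its close relative, was at 0.351, 0.191 and 0.231 CPM in B6 Ctrl and at 7.07, 11.4 and 2.17 CPM in B6 KD. Its change, the highest estimate of the 10, was 4.69 ± 0.99 (edgeR adjusted p = 0.0415) and rested on 4.90 to 12.96 expected counts per Ctrl library. Of all 75-base windows in the Oas1a transcripts, 47.6% were also found in Oas1g, so the counts of these genes may be split differently by another method.

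Oas1b, the gene of the flavivirus resistance locus, was at 0.593, 1.15 and 0.492 CPM in B6 Ctrl and at 8.60, 12.1 and 4.56 CPM in B6 KD. It rose by 3.52 ± 0.65 (edgeR adjusted p = 0.0361). Oas2, the middle-sized enzyme of the family, was at 1.24, 1.72 and 0.896 CPM in B6 Ctrl and at 20.8, 34.2 and 6.22 CPM in B6 KD. The groups of both genes were well apart, with B6 KD 2 the highest library and B6 KD 3 the lowest of the KD libraries. The log2 fold change of Oas2 was 3.99 ± 0.79 (edgeR adjusted p = 0.0379). Oas3, the largest enzyme, was at 0.270, 0.65 and 0.376 CPM in B6 Ctrl and at 9.48, 17.7 and 1.81 CPM in B6 KD. Its change was 4.50 ± 0.81 (edgeR adjusted p = 0.0359), and its highest KD library was 9.74 times its lowest, the widest spread within B6 KD of the 10 genes.

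Oasl1 and Oasl2 are the OAS-like genes. Oasl1, which restrains the translation of Irf7, was at 0.405, 0.229 and 0.376 CPM in B6 Ctrl and at 7.69, 12.8 and 1.97 CPM in B6 KD. Oasl2 was at 8.63, 11.3 and 7.72 CPM in B6 Ctrl and at 218, 268 and 69.6 CPM in B6 KD. Both were higher in all KD libraries. The change was 4.43 ± 1.00 for Oasl1 (edgeR adjusted p = 0.0465) and 4.33 ± 0.81 for Oasl2 (edgeR adjusted p = 0.0361).

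**Figure D1:**
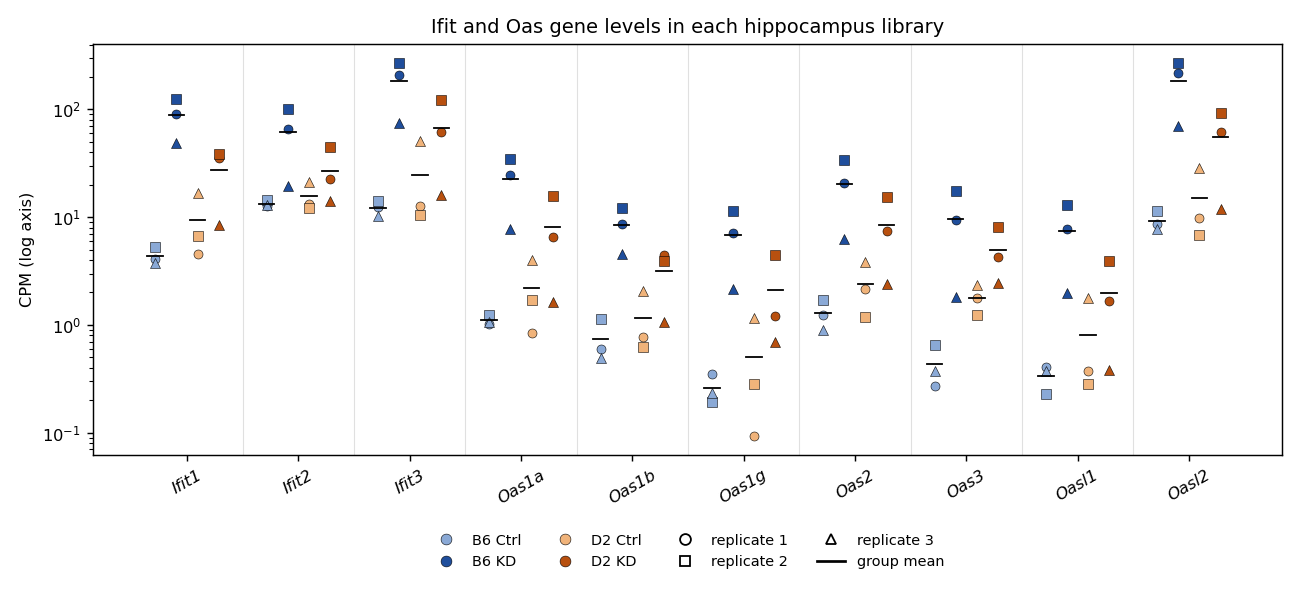
Level of each gene in each of the 12 libraries, in CPM on a log axis, with colours for the 4 groups, symbols for the replicates and black lines for the group means (n = 3). In B6 the KD libraries sit above the Ctrl libraries for all 10 genes, while in D2 the groups overlap for all but Oas3.

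The 10 genes ranked the B6 KD libraries alike. B6 KD 2 was highest, B6 KD 1 next and B6 KD 3 lowest for 10 of the 10, an order held by 18.4% of tested genes. B6 KD 3 also had the highest Hp1bp3 of the B6 KD libraries. The ratio of the highest to the lowest library ran from 2.60 to 9.74 across the 10 genes in B6 KD, against 1.13 to 2.41 in B6 Ctrl.

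The next question was whether D2 mice changed in the same way. No gene of the 10 was called in D2 by edgeR (adjusted p = 1 for each), and 0 of all tested genes were called, a share of 0%. At an unadjusted p under 0.05 there were 6 of the 10 genes and 452 of all tested genes, and DESeq2 also called 0 of the 10. The estimates were positive for all 10, from 0.80 for Ifit2 to 2.05 for Oas1g, with a median of 1.51.

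In D2, Ifit1 was at 4.58, 6.68 and 16.9 CPM in Ctrl and at 35.4, 38.7 and 8.44 CPM in KD. Its change was 1.55 ± 0.60. Ifit2 was at 13.2, 12.1 and 21.4 CPM in D2 Ctrl and at 22.4, 44.6 and 14.0 CPM in D2 KD. For both genes D2 Ctrl 3 was above the library labelled D2 KD 3, so the groups overlapped. Ifit3 was at 12.8, 10.5 and 50.8 CPM in D2 Ctrl and at 61.3, 123 and 16.0 CPM in D2 KD. Its change of 1.43 ± 0.75 had an interval from -0.23 to 3.09.

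Oas1a was at 0.836, 1.70 and 4.04 CPM in D2 Ctrl and at 6.57, 15.9 and 1.64 CPM in D2 KD. Oas1b was at 0.774, 0.623 and 2.07 CPM in D2 Ctrl and at 4.47, 3.95 and 1.08 CPM in D2 KD. Oas1g was at 0.0929, 0.283 and 1.15 CPM in D2 Ctrl and at 1.22, 4.42 and 0.696 CPM in D2 KD. The groups overlapped for each of these genes, and in D2 Ctrl 1 the level of Oas1g rested on 2.68 expected counts. Oas2 was at 2.14, 1.19 and 3.85 CPM in D2 Ctrl and at 7.51, 15.5 and 2.40 CPM in D2 KD. Oas3 was at 1.77, 1.25 and 2.33 CPM in D2 Ctrl and at 4.23, 8.18 and 2.47 CPM in D2 KD. It was the only gene of the 10 with every D2 KD library above every D2 Ctrl library, an order found in 2.93% of tested genes. The change of Oas3 was 1.47 ± 0.70.

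Oasl1 was at 0.372, 0.283 and 1.78 CPM in D2 Ctrl and at 1.68, 3.89 and 0.380 CPM in D2 KD. Oasl2 was at 9.72, 6.91 and 28.4 CPM in D2 Ctrl and at 61.6, 91.8 and 11.8 CPM in D2 KD. The groups overlapped for both, and the changes were 1.27 ± 0.90 for Oasl1 and 1.87 ± 0.74 for Oasl2.

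The overlap in D2 came from the same libraries for most of the genes. D2 Ctrl 3 was the highest Ctrl library for 10 of 10, which held for 43.6% of tested genes, and at least 2 times the next for 7 of 10, which held for 2.35% of tested genes. The library labelled D2 KD 3 was the lowest KD library for 10 of 10, as for 35.7% of tested genes. D2 KD 1 and D2 KD 2 were above every D2 Ctrl library for all but Oasl1, as for 12.7% of tested genes. Without D2 Ctrl 3 the D2 estimates ran from 1.10 to 3.63 and without the library labelled D2 KD 3 from 1.11 to 2.46. In both fits 8 of the 10 had an unadjusted p under 0.05. So did 1019 of 16075 tested genes in the first fit and 1236 of 16064 in the second, against 452 of 15853 with all libraries. Without D2 KD 2 they ran from 0.22 to 1.28, with a median of 0.90. No gene of the 10 had an unadjusted p under 0.05 without D2 KD 2, D2 Ctrl 1 or D2 Ctrl 2, and 3 had without D2 KD 1. Over all tested genes the counts in these fits were 302, 247, 380 and 262, in that order. None was called by edgeR with any library left out, and the estimates were positive in all of these fits.

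**Figure D2:**
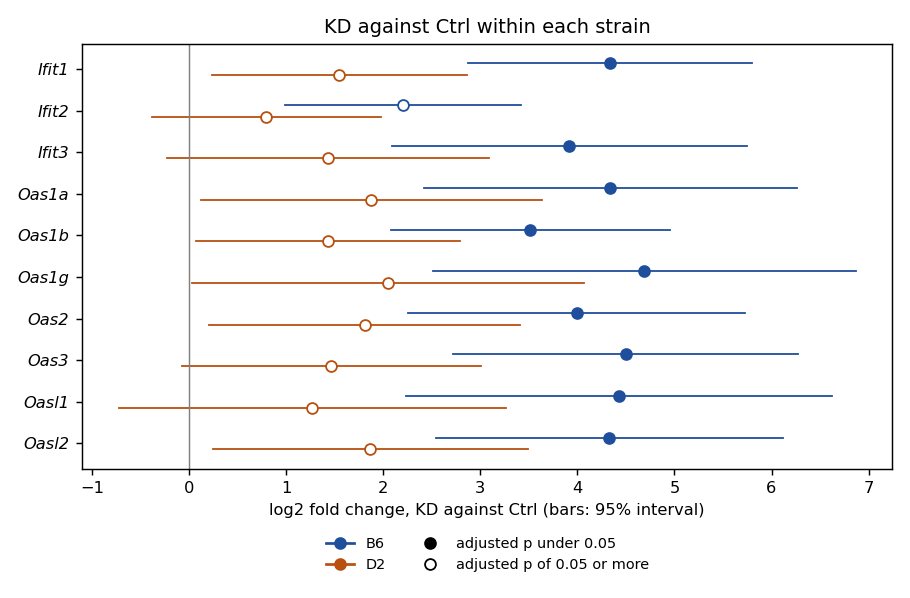
Log2 fold change of KD against Ctrl for each gene in B6 and in D2, with bars for the 95% interval and filled points for an edgeR adjusted p under 0.05. The B6 estimates run from 2.21 to 4.69 and the D2 estimates from 0.80 to 2.05.

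The difference between the strains in the KD effect was tested as an interaction. The estimates were negative for all 10 genes, from -3.16 for Oasl1 to -1.41 for Ifit2, meaning a smaller estimate in D2. No gene of the 10 passed (edgeR adjusted p of 0.821 or more), and 0% of all tested genes were called. At an unadjusted p under 0.05 there were 6 of the 10 and 5.91% of all tested genes, and DESeq2 called 0 of the 10. That count of 6 was 2 without B6 Ctrl 1, B6 Ctrl 3, B6 KD 1, B6 KD 2 or D2 Ctrl 3, 3 without D2 KD 1 or the library labelled D2 KD 3, 4 without B6 Ctrl 2, and 10 without B6 KD 3 or D2 KD 2. It was 8 without D2 Ctrl 1 and 7 without D2 Ctrl 2. The count over all tested genes, 937 with all libraries, moved as well. It ran from 542 without B6 Ctrl 1 to 1580 without B6 KD 3, and was 1164 without D2 KD 2. With all libraries, the unadjusted count among the 10 was 9 by DESeq2, 6 by limma-voom with library weights and 5 by the newer quasi-likelihood method. It was 1 by limma-voom or with the library total as a covariate. Over all tested genes the counts by these methods were 1132, 1815, 937, 855 and 627, in the order named. For Ifit1 the difference was -2.79 ± 0.85, with a 95% interval from -4.66 to -0.92. Averaged over strains, the estimates ran from 1.5 for Ifit2 to 3.37 for Oas1g. Again no gene of the 10 was called by edgeR (adjusted p of 0.0540 to 0.0798), and 0% of all tested genes were called. All 10 had an unadjusted p under 0.05, as did 19.2% of all tested genes. DESeq2 called all 10 among 1241 genes and limma-voom with library weights all 10 among 1598, and limma-voom without weights called 0. They were also all called by edgeR without B6 KD 3 or without the library labelled D2 KD 3, and 9 were called without D2 Ctrl 3.

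The strains were next compared within each treatment. In Ctrl mice 0 of the 10 genes differed by edgeR, against 14.0% of all tested genes. Only Oas3 had an unadjusted p under 0.05, against 23.2% of all tested genes. Oas3 was also called by DESeq2, which called 2678 genes. Its edgeR estimate was 2.08 ± 0.79, higher in D2 (edgeR adjusted p = 0.127). It was at 1.25 to 2.33 CPM in D2 Ctrl and at 0.270 to 0.65 CPM in B6 Ctrl. The estimates of the other 9 were also higher in D2, at 0.22 to 1.27, but without D2 Ctrl 3 those of Ifit2, Ifit3, Oas1b, Oas1g, Oasl1 and Oasl2 turned negative. In KD mice 0 of the 10 differed by edgeR, against 15.0% of all tested genes, and the estimates were lower in D2 for all 10, at -1.90 to -0.95. At an unadjusted p under 0.05 there were 5 of the 10 and 26.3% of all tested genes. DESeq2 called 0 of the 10 among 3045 genes, limma-voom 1 among 2428 and limma-voom with library weights 9 among 3076. Every B6 KD library was above every D2 KD library for 2 of the 10, Ifit1 and Oas1b, an order held by 15.7% of tested genes. Reads of each strain had been aligned to that strain's own genome, so differences between strains in alignment and in level cannot be told apart.

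Other genes of the same families were also measured. Ifit3b, which shares sequence with Ifit3 (41% of the 75-base windows of Ifit3), was at 7.0 to 7.82 CPM in B6 Ctrl and 31.3 to 115 CPM in B6 KD, a change of 3.45 ± 0.84 (edgeR adjusted p = 0.0534). Its neighbours Ifit1bl1 and Ifit1bl2 had estimates of -0.10 ± 0.23 and 0.45 ± 0.34 (edgeR adjusted p = 0.851 and 0.487). Oas1c had an estimate of 1.57 ± 0.42 (edgeR adjusted p = 0.0675). Oas1d, Oas1e and Oas1f were at 3 counts or fewer in every library, and Oas1h at 8 or fewer.

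The genes on each side of the larger clusters were then examined. The 5 nearest tested genes on each side lay 18 to 1434 kb from the Ifit cluster and 18 to 450 kb from the Oas cluster. Of these genes, 10 for each cluster, 0 were called in B6 by edgeR at either place. With 2.64% of all tested genes called, a count of 0 in 10 says little about these neighbours. Their estimates ran from -0.22 to 1.23 around the Ifit cluster and from -0.63 to 0.45 around the Oas cluster. The highest was that of Fas, a death receptor, at 1.23 ± 0.31 (edgeR adjusted p = 0.0592). A test of the clusters against their neighbours was not made.

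**Figure D3:**
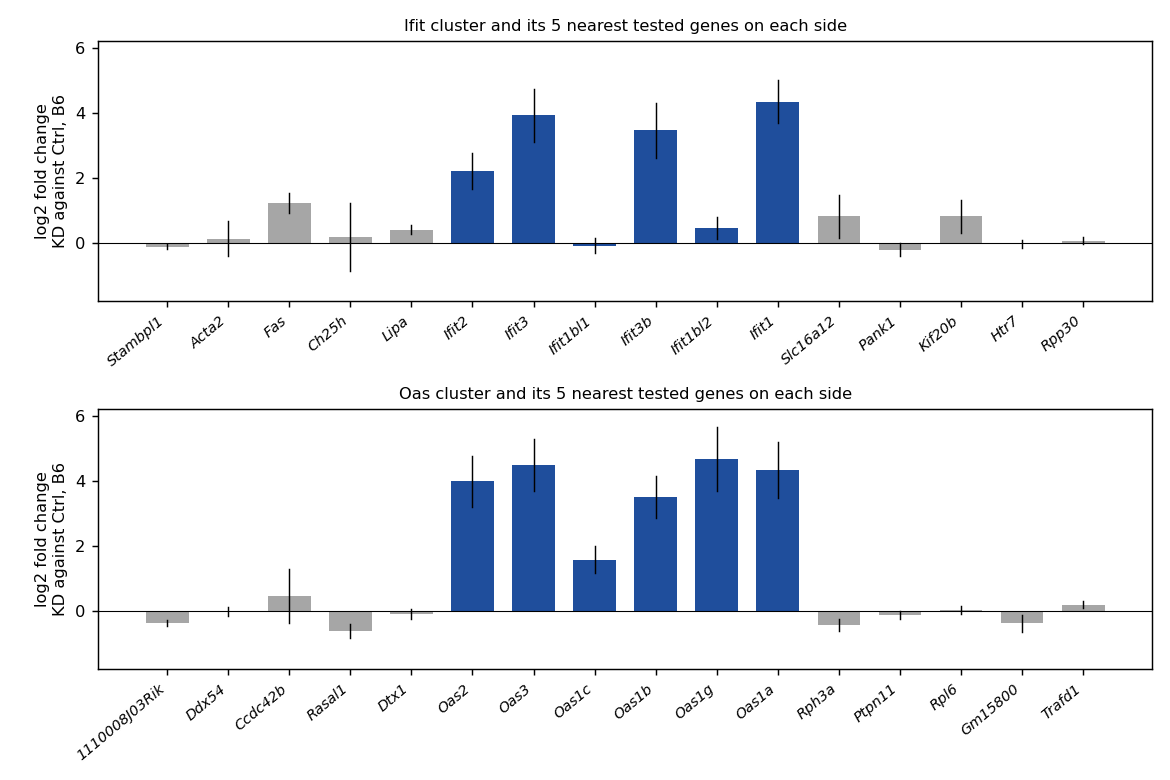
Log2 fold change of KD against Ctrl in B6 for the tested genes of the Ifit and Oas clusters (blue, all members of the gene family) and the 5 nearest tested genes on each side (grey), in genomic order, with lines for ± 1 SE. The grey genes lie up to 1434 kb from the Ifit cluster and up to 450 kb from the Oas cluster. The grey bars reach at most 1.23, and the blue bars reach 4.69.

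The pathway in which these genes act was followed from ligand to effector. The lists of pathway genes were also chosen with earlier results of these data known, so their counts are descriptions and not independent evidence. All 21 interferon genes in the table, Ifnb1 and Ifng included, were at 3 counts or fewer in every library, so no change in them was detectable at this depth. Of the 9 genes for interferon receptors and their kinases, 0 were called in B6 by edgeR, with a median estimate of 0.19. With 2.64% of all tested genes called, a count of 0 in 9 says little. Of the 9 estimates 6 were positive, and they ran from -0.13 for Ifngr2 to 1.47 for Ifnlr1. Among 6 transcription factors, 4 rose in B6, where 1.76% of all tested genes were called higher. Stat2 and Irf9 encode parts of the factor that binds the response element. The changes were 1.40 ± 0.22 for Stat2 and 1.73 ± 0.32 for Irf9 (edgeR adjusted p = 0.0326 and 0.0361). Irf7, which drives interferon genes, went from 2.76 ± 0.75 to 70.9 ± 40.8 CPM, a change of 4.69 ± 0.71 (edgeR adjusted p = 0.0326).

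Of 11 sensors of foreign RNA and DNA, 7 rose in B6 against 1.76% of all tested genes, among them Ifih1, which encodes the sensor MDA5, at 2.67 ± 0.47, and Eif2ak2, the kinase PKR, at 2.40 ± 0.32 (edgeR adjusted p = 0.0344 and 0.0326). Usp18, which damps signalling from the interferon receptor, rose by 4.32 ± 0.79 (edgeR adjusted p = 0.0361), while Socs1, at 1.53 ± 0.38, and Socs3, at 3.22 ± 0.83, did not pass (edgeR adjusted p = 0.0567 and 0.0614). Of 11 other antiviral effectors 8 rose, against the same 1.76%, including Isg15, a ubiquitin-like protein, at 4.37 ± 0.69, Mx1 at 4.39 ± 0.97 and Rsad2, which encodes viperin, at 2.90 ± 0.60 (edgeR adjusted p = 0.0326, 0.0448 and 0.0415). No gene of any list was called in B6 when B6 Ctrl 1, B6 Ctrl 3, B6 KD 1, B6 KD 2 or D2 Ctrl 1 was left out, since the count over all genes was then 0. In D2, 0 genes of these lists were called by edgeR, as over all tested genes. The median D2 estimates were 0.57 for the transcription factors, 0.48 for the sensors and 1.2 for the other effectors, with a value of 1.73 for Irf7.

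**Figure D4:**
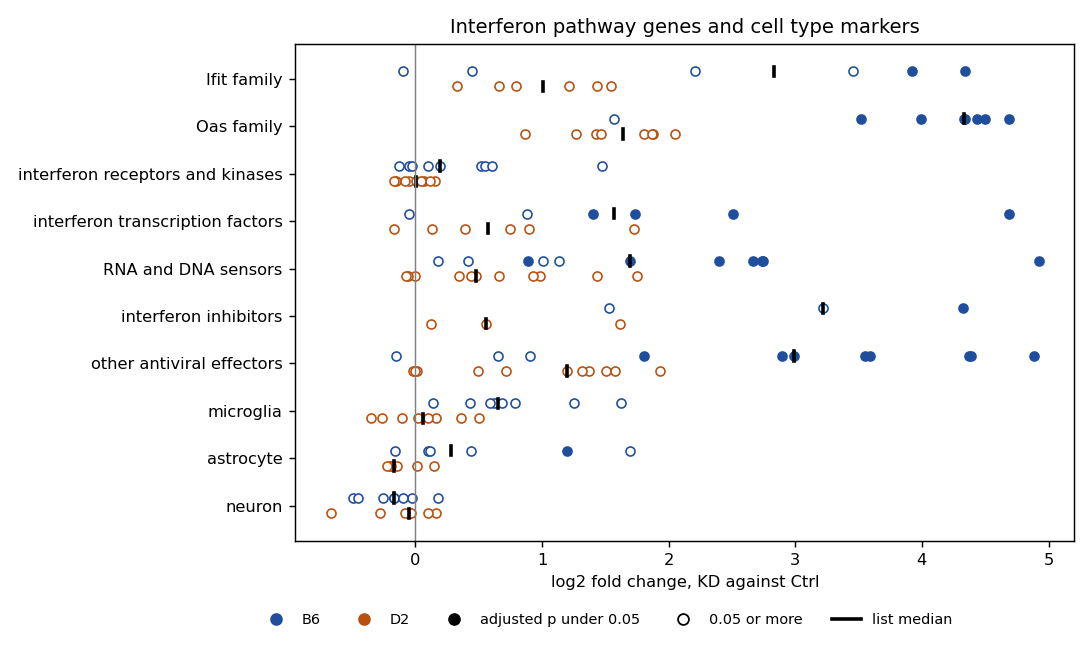
Log2 fold change of KD against Ctrl in B6 and D2 for the tested genes of each list (points, filled where the edgeR adjusted p was under 0.05) with the list median (black line). The B6 medians were 4.34 for the Oas family, 1.57 for the transcription factors and 0.19 for the receptors and kinases.

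Markers of other cell types moved with some of these values. The summed level of 8 microglial markers was 390 to 451 CPM in B6 Ctrl, 531 to 854 in B6 KD, 376 to 598 in D2 Ctrl and 381 to 639 in D2 KD. In B6 all 8 had positive estimates, with a median of 0.65, and 0 were called by edgeR. Over all tested genes 2.64% were called in B6 and 1.76% called higher, so counts of 0 or 1 in marker lists this short say little. The defining markers P2ry12 and Tmem119 were at 22.9 CPM or more and 14.8 CPM or more in every library. The microglial sum was highest in D2 Ctrl 3 among the D2 Ctrl libraries and lowest in the library labelled D2 KD 3 among the D2 KD libraries. In B6 KD 1, 2 and 3 it was 854, 814 and 531 CPM, while the 10 genes were highest in B6 KD 2 and lowest in B6 KD 3. Among the B6 Ctrl libraries it was highest in B6 Ctrl 1, while the mean of the 10 genes was highest in B6 Ctrl 2. Lymphocyte markers summed to 0.396 to 8.20 CPM in all libraries, with the highest sums in B6 KD 2 and B6 KD 1, and Cd3e was at 0 in 4 libraries. Monocyte and neutrophil markers summed to 1.67 to 5.05 CPM in B6 Ctrl and 3.30 to 23.0 in B6 KD, and 1 of the 6 tested, Plac8, was called higher in B6. Of 6 astrocyte markers, which had a median estimate of 0.28 in B6, only Aqp4 was called, at 1.2 ± 0.19 (edgeR adjusted p = 0.0326). The summed level of 8 neuronal markers was 10082, 9227 and 10139 CPM in B6 Ctrl and 8496, 7409 and 8984 CPM in B6 KD. It was lower in every B6 KD library than in every B6 Ctrl library and lowest in B6 KD 2, where the 10 genes were highest. The share of tested genes with that order is not given here, and the sum is over 8 genes, so the order by itself says little. In D2 the neuronal sum was 10661, 10366 and 8884 CPM in Ctrl and 9259, 9070 and 9473 CPM in KD, so the groups overlapped. The median estimate of the neuronal markers in B6 was -0.17, 7 of the 8 were negative, and 0 were called by edgeR. The part of these cells in the IFIT and OAS levels was not tested, and in bulk tissue more cells of a type and more RNA per cell cannot be told apart. The choroid plexus markers, which summed to 58.5 to 5078 CPM, varied within groups and were low in B6 KD 1 (142 CPM) and high in B6 KD 2 (4115 CPM).

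Over the 12 libraries the 10 genes followed each other closely, and every gene had a Pearson r of 0.94 or more with the mean of the 10 on the log2(CPM + 1) scale. That mean includes the gene itself, which raises r. Between single genes, the average r with the others ran from 0.917 for Oas3 to 0.971 for Oas2, and the lowest r of any pair was 0.892. Outside the lists, the genes most like the mean of the 10 were Trim30a (r = 0.993), Herc6 and Phf11d (0.992 each), Samd9l and Gm4951 (0.991 each). These are descriptions over the 12 libraries of 4 groups, which share the difference between treatments. Trim30a went from a mean of 4.43 to 44.9 CPM in B6 and from 7.66 to 17.6 CPM in D2.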

How the data were processed

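Hippocampal mRNA of 12 mice was sequenced, and the authors deposited expected counts per gene, estimated with RSEM 1.2.12 and Bowtie2 2.2.0 after alignment to the genome of each mouse's own strain. The submitters' processing notes name GRCm38 and mm10. Reads of repeated sequencing were joined for most samples by the authors, and which samples lacked the second run is not given in the sources used here. The authors' DESeq2-normalized counts were not used here.

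The expected counts were rounded to whole numbers and tested with edgeR 4.0.16 in R 4.3.3 (filterByExpr, TMM, glmQLFit with robust estimation), fitting 4 group means over all 12 libraries and 6 contrasts, with Benjamini-Hochberg adjustment over 15853 genes and a threshold of 0.05. Standard errors were derived from the F statistic and are approximate. Each library is 1 mouse. The scripts were tested on simulated data. Libraries were grouped by the labels' strain and treatment. Alternatives were DESeq2 1.42.0, RLE scaling, no filter, limma-voom (3.58.1), limma-voom with library weights and robust variance estimates, the newer quasi-likelihood method, the library total as a covariate and leaving out each library. Symbols that had turned into dates (27) were restored from gene IDs, and genes listed under older symbols were matched by ID. Transcript coordinates and windows came from GENCODE for GRCm38 and promoters from RefSeq. Named genes were the 10 genes, a set of pathway genes (some items are not reported here), the 5 most correlated genes outside the lists, and the flanking genes. The 10 genes and the lists were chosen with earlier results of these data known. Depth was 18213084 to 39420219 expected counts, and a gene at 3 counts or fewer carries little information on change.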

Additional observations from a re-analysis of the deposited data

How the results depend on the processing

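In B6, the count of the 10 genes called was 9 by edgeR, 10 by DESeq2, 9 with RLE scaling, 9 with the newer quasi-likelihood method, 7 without the filter, 4 by limma-voom, 10 by limma-voom with library weights and 0 with the library total as a covariate. Leaving out 1 library gave 0 to 10. Averaged over strains the count was 0, but 10 by DESeq2, 10 by limma-voom with library weights and 1 by the newer method, and 0 to 10 with 1 library left out. In D2 against B6, DESeq2 called 1 gene in Ctrl (0 to 1 with 1 library left out), while in KD limma-voom called 1 and limma-voom with library weights 9 (0 to 1 with 1 library left out). The counts for KD in D2 and for the interaction were 0 in all 19 alternatives. The weighted limma-voom fit was chosen after seeing the data, and the cause of these differences was not tested.

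Estimates changed sign only in D2 against B6 in Ctrl. With 1 library left out, the log2 difference ran from -0.080 to 0.37 for Ifit2, -0.063 to 1.37 for Ifit3, -0.047 to 1.10 for Oas1b, -0.63 to 1.49 for Oas1g, -0.031 to 1.64 for Oasl1 and -0.13 to 1.05 for Oasl2, and Oas1g was at -0.48 by limma-voom with library weights. Over all genes, the B6 count of 418 was 1688 by DESeq2, 2304 by limma-voom with library weights, 612 by the newer method and 0 with the library total as a covariate, and the averaged count of 0 was 1241, 1598, 15 and 0. With 1 library left out the B6 count was 0 without B6 Ctrl 1, B6 Ctrl 3, B6 KD 1, B6 KD 2 or D2 Ctrl 1 and at most 790, without B6 KD 3. The averaged count was then 400 without B6 KD 3, 326 without D2 Ctrl 3 and 799 without D2 KD 3.

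With 3 mice per group, intervals were wide and calls near the threshold moved with single libraries. No paired analysis was possible because the labels give no replicate numbers shared between groups. The running numbers in the sample titles are 1 to 6 for B6 KD and D2 Ctrl and 7 to 12 for B6 Ctrl and D2 KD. What they mark is not given in the sources used here. Their order follows the interaction and separates the groups of each comparison within a strain or treatment, so the 2 cannot be told apart there, but it does not follow treatment over both strains.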
